A study of Homo sapiens with 6 samples.

Results

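The NRF2 antioxidant genes are 9 genes chosen by symbol from the deposited gene count table: NFE2L2, which encodes NRF2 itself, and its well-known targets TXNRD1, NQO1, GCLC, GCLM, SLC7A11, SRXN1, HMOX1 and OSGIN1. All 9 were present among the 58735 genes of the table, and all 9 passed the filter on low counts. They were measured by RNA sequencing in ARPE-19 cells, a human line derived from the retinal pigment epithelium (RPE). There were 3 control libraries, called NC and labelled WT, and 3 libraries of cells overexpressing CD51-ICD, called OE_CD51_ICD. ITGAV encodes CD51, also known as integrin alpha V. The sources used here do not give a treatment, the vector, the number of clones or whether control cells carried an empty vector. Nothing in the labels says that the replicates were grown separately, so each p-value reflects the spread among these libraries alone, and that spread may be technical.

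NRF2 is a transcription factor that is held at a low level by KEAP1, an adaptor that presents it to a CUL3 ubiquitin ligase for degradation. Oxidants and electrophiles modify cysteines of KEAP1, NRF2 then accumulates, pairs with small MAF proteins and binds antioxidant response elements near genes for glutathione and thioredoxin metabolism, quinone reduction and NADPH supply. BACH1, a haem-sensing repressor, competes for the same elements and is best known for its hold on HMOX1. RPE cells work under light, high oxygen and a heavy load of oxidised lipid from photoreceptor outer segments, and NRF2 targets are a main part of their defence. NRF2 is controlled mostly as a protein, so the NFE2L2 transcript is not a measure of its activity.

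Total counts ran from 13616694 to 16934668 per library and overlapped between the groups. ITGAV was 98.4 ± 12.9 CPM (SD, n = 3) in NC and 448 ± 83.5 CPM (SD, n = 3) in OE_CD51_ICD. The log2 fold change was 2.18, in the direction of the labels. The labels name CD51-ICD, while the count is for the whole ITGAV gene. Reads from a construct and from the cells' own ITGAV cannot be told apart in it. CPM is the count of a gene scaled to a common library total, with TMM factors. Of RPE markers, KRT8, KRT18, OTX2 and PAX6 were detected in both groups, and RPE65 and TTR had no count in any library. TYR, TYRP1, DCT and BEST1 had too few counts to be tested. Of 9 RPE markers tested, 3 (33.3%) were higher at an edgeR adjusted p under 0.05, against 25.2% of all genes. These were PAX6, PMEL and RLBP1 (log2 0.59, 0.80 and 0.81). MITF (log2 -0.56) was the 1 lower (11.1%, against 25.8% of all genes), and 5 did not pass. Of 11 microglia and macrophage markers, 8 had at most 3 counts over all 6 libraries. Their summed level was 3.31 to 4.67 CPM in NC and 31.4 to 37.1 CPM in OE_CD51_ICD, nearly all of it from CSF1R (3.60 and 32.9 CPM), while PTPRC had 0 and 1 counts. The fibroblast markers DCN and DPT were at 0, and the summed level of the 8 fibroblast markers, 213 to 238 CPM and then 375 to 415 CPM, was nearly all PDGFRB. The 7 endothelial markers summed to 25.3 to 28.7 CPM and 18.2 to 22.4 CPM, mostly EGFL7. The EGFL7 call (log2 -0.33, edgeR adjusted p = 0.0295) held in 12 of 19 other settings and was lost with the GC trend removed. Over these settings its log2 fold change was -0.42 to 0.04. KDR, at 1.33 and 0.658 CPM, was also called lower (log2 -0.99, edgeR adjusted p = 0.0484), and this held in 8 of 18 other settings. The part of CSF1R, PDGFRB and EGFL7 or their cells in the results on NRF2 genes was not tested. In bulk RNA, fewer cells of a type and less RNA per cell cannot be told apart.

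The NRF2 targets did not move as a block. TXNRD1, NQO1, OSGIN1 and SRXN1 were lower in OE_CD51_ICD, by 1.52-fold to 3.56-fold, while HMOX1 was 2.25-fold and GCLC 1.47-fold higher. NFE2L2 rose slightly, in a call that held in only 9 of 19 other settings, and GCLM and SLC7A11 did not pass the test. With the GC trend removed, NFE2L2 was not called, while GCLM and SLC7A11 were called lower (log2 -0.33 and -0.56). The counts that follow are those of the main fit. Of the 9 genes, 7 passed an adjusted p under 0.05 by edgeR's quasi-likelihood test, against 51.0% of the 13787 genes tested. Of these, 3 (33.3% of the 9) were higher and 4 (44.4%) lower, against 25.2% and 25.8% of all genes. By at least 2-fold, HMOX1 was higher and TXNRD1 and OSGIN1 were lower, against 6.89% and 5.83% of all genes. The median log2 fold change of the 9 was -0.33, against 0.01 over all genes tested. The groups did not overlap in 7 of the 9, against 57.5% of all genes.

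**Figure D1:**
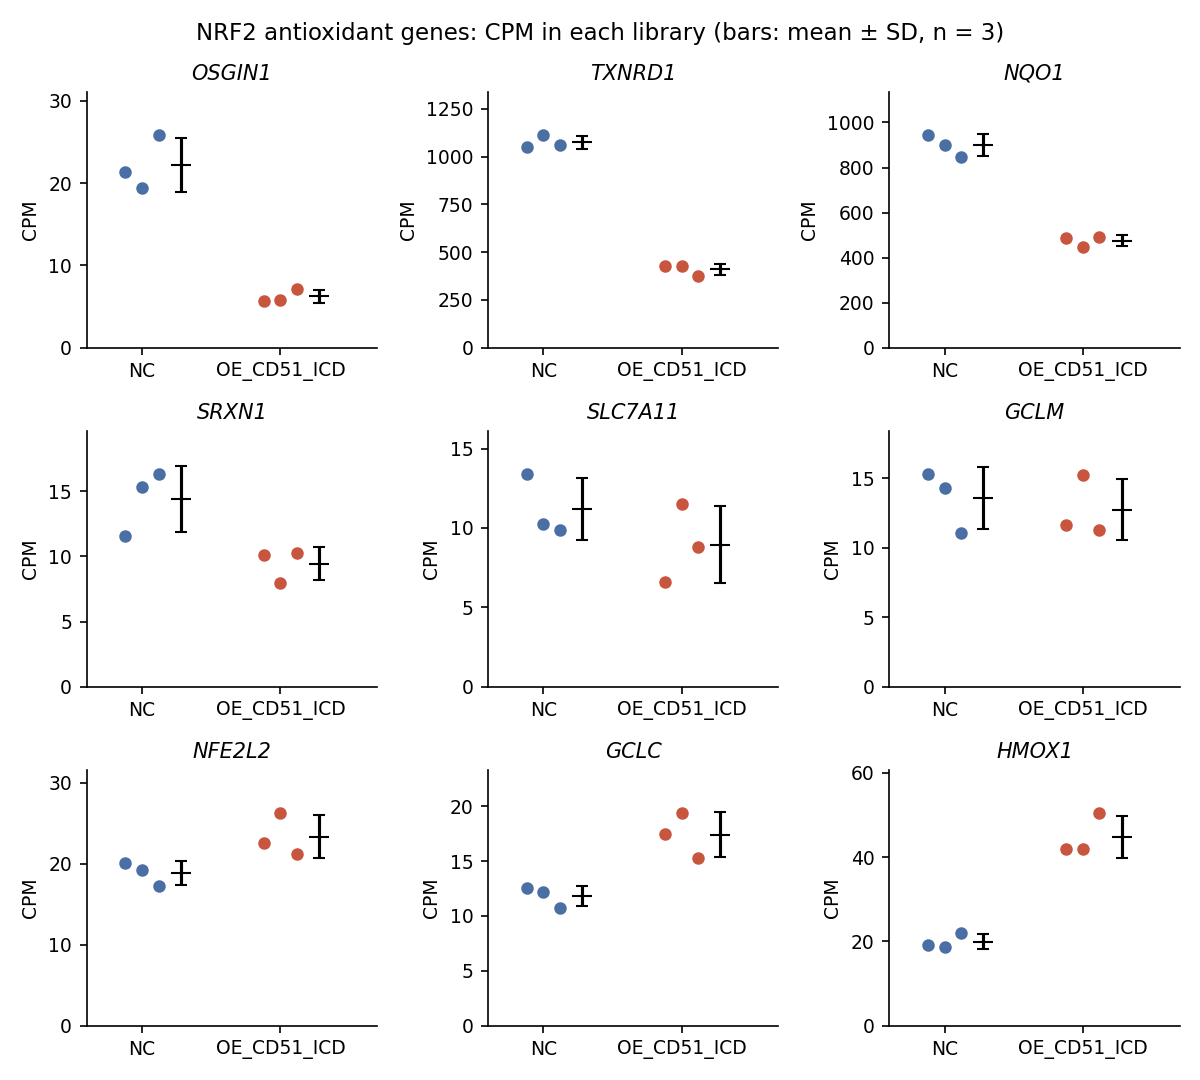
CPM of each of the 9 genes (vertical axes, linear, from 0) in the 3 NC libraries (blue) and the 3 OE_CD51_ICD libraries (red), with mean ± SD beside the points. The groups are apart in every panel but SLC7A11 and GCLM. OSGIN1, TXNRD1, NQO1 and SRXN1 are lower in OE_CD51_ICD, and NFE2L2, GCLC and HMOX1 are higher.

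Levels between genes were compared per length, with the deposited FPKM. In NC, NQO1 (274 ± 14.0 FPKM) and TXNRD1 (159 ± 5.23 FPKM) stood far above the others, at ranks 119 and 228 of the tested genes. HMOX1 (8.22 ± 0.789 FPKM), OSGIN1 (6.37 ± 0.979), SRXN1 (5.31 ± 0.944), NFE2L2 (3.13 ± 0.228), GCLM (2.48 ± 0.397), GCLC (1.36 ± 0.102) and SLC7A11 (1.15 ± 0.197 FPKM) followed (SD, n = 3). In that order the libraries of OSGIN1 and SRXN1 overlapped, as did those of GCLC and SLC7A11. In OE_CD51_ICD the order was NQO1 (144 FPKM), TXNRD1 (60.3), HMOX1 (18.4), NFE2L2 (3.85), SRXN1 (3.47), GCLM (2.32), GCLC (1.98), OSGIN1 (1.78) and SLC7A11 (0.916 FPKM). Here the libraries of NFE2L2 and SRXN1 overlapped, and so did those of GCLM and GCLC and of GCLC and OSGIN1. OSGIN1 went from the fourth place to the eighth.

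NFE2L2 (ENSG00000116044, chromosome 2, 177227595 to 177392697, minus strand, GRCh38) was 20.1, 19.2 and 17.3 CPM in NC replicates 1, 2 and 3. In OE_CD51_ICD replicates 1, 2 and 3 it was 22.5, 26.3 and 21.2 CPM. The lowest OE_CD51_ICD library was just above the highest NC library. The log2 fold change was 0.31 ± 0.13 SE (adjusted p = 0.0443). The call was close to the threshold: it was lost in 10 of 19 other settings, among them removal of the GC-content trend of each library (log2 0.17, adjusted p = 0.196) and library-size scaling (adjusted p = 0.129). It was also lost without NC replicate 2 or 3 (adjusted p = 0.0894 and 0.158) and without OE_CD51_ICD replicate 1 or 2 (adjusted p = 0.0690 and 0.175). Over all 19 other settings, those that kept the call included, the adjusted p ran from 0.0170 to 0.220. Exons of other annotated genes, mainly AC019080.1, cover 20.9% of its exon bases.

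All 17 genes of the list of NRF2 regulators were tested. Of these, 7 were higher (41.2%), 3 lower (17.6%) and 7 did not pass, against 25.2% and 25.8% of all genes higher and lower, with a median log2 fold change of 0.10. MAFK, a small MAF partner that can also repress these elements as a homodimer, went from 53.9 ± 1.97 to 110 ± 9.69 CPM (log2 1.03, adjusted p = 6.16e-11). MAFF, another small MAF gene, fell from 26.9 ± 0.839 to 16.6 ± 2.47 CPM, and MAFG, at 66.1 ± 3.02 and 70.7 ± 2.41 CPM (log2 0.10), did not pass. MAFG was called higher with the GC trend removed (log2 0.31, edgeR adjusted p = 0.000929). MAFG shares exon bases with SIRT7 on the same strand, and MAFK with TMEM184A on the other strand, so their counts are less certain. NFE2L3, a relative of NRF2, rose by 0.65 and GSK3B, a kinase that marks NRF2 for degradation, by 0.55 on the log2 scale. Both GSK3B and MAFF were still called with the GC trend removed, at 0.35 and -0.41.

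SQSTM1, the autophagy receptor p62 that binds KEAP1 and is itself an NRF2 target, was abundant and fell from 1381 ± 40.8 to 874 ± 75.7 CPM (log2 -0.66, adjusted p = 4.33e-08). Its exons overlap those of MGAT4B and MRNIP on the other strand. Removing the GC trend gave -0.44. KEAP1 was 194 ± 14.2 CPM in NC and 160 ± 10.2 CPM in OE_CD51_ICD (log2 -0.28, adjusted p = 0.00527). With the GC trend removed its log2 fold change was -0.025 (adjusted p = 0.780), so that call depended on the GC setting. BACH1 had log2 0.53 with overlapping groups (8.61 ± 2.54 and 12.5 ± 1.57 CPM, edgeR adjusted p = 0.0154). CUL3 and the co-activator gene EP300 had 0.33 and 0.27, and the groups overlapped for EP300 but not for CUL3. All 3 calls were lost with library-size scaling (adjusted p = 0.0511, 0.0801 and 0.0745), which left 4 higher genes in this list. The BACH1 and CUL3 calls were also lost with the GC trend removed (adjusted p = 0.148 and 0.499). Single libraries decided them too: BACH1 was not called without NC replicate 2 (log2 0.34) or OE_CD51_ICD replicate 2, CUL3 without NC replicate 1 or 3 or OE_CD51_ICD replicate 2, and EP300 without replicate 1 or 2 of either group. NFE2L1, RBX1, BTRC, FBXW11 and CREBBP had log2 fold changes of -0.10, 0.08, -0.01, 0.12 and 0.06 and did not pass, and the sign of each of them changed under some other setting. CREBBP was called higher with the GC trend removed (log2 0.25, edgeR adjusted p = 0.0228), and FBXW11 without OE_CD51_ICD replicate 3 (log2 0.22, edgeR adjusted p = 0.0404).

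TXNRD1 (ENSG00000198431, chromosome 12, 104215779 to 104350305, plus strand) encodes the cytosolic thioredoxin reductase, a selenoprotein that uses NADPH to recycle thioredoxin. It was 1049, 1115 and 1058 CPM in NC replicates 1, 2 and 3. In OE_CD51_ICD replicates 1, 2 and 3 it was 427, 426 and 376 CPM. Every NC library was far above every OE_CD51_ICD library, and the spread within a group was small beside the gap. The gene fell 2.62-fold (log2 -1.39 ± 0.08 SE, adjusted p = 5.33e-15), a larger absolute change than 93.5% of tested genes. The call held in 19 of 19 other settings, with log2 fold changes of -1.54 to -1.33.

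SRXN1 (ENSG00000271303, chromosome 20, 646615 to 653370, minus strand) encodes sulfiredoxin, which restores peroxiredoxins whose cysteine has been over-oxidised. It was 11.6, 15.4 and 16.4 CPM in the NC replicates and 10.1, 7.996 and 10.2 CPM in the OE_CD51_ICD replicates. The groups were apart by a small margin, set by NC replicate 1. The log2 fold change was -0.61 ± 0.16 SE (adjusted p = 0.00267), called in 19 of 19 other settings. Exons of a second gene model on the same strand, AL121758.1, cover 85.0% of the exon bases of SRXN1, and that model had 4 counts in all. The sources used here do not say how reads in the shared stretch were assigned, so the level of SRXN1 against other genes is uncertain.

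Thioredoxin and peroxiredoxin genes outside the 9 were 4 higher (21.1%) and 6 lower (31.6%) of 19 tested, against 25.2% and 25.8% of all genes, with a median log2 fold change of -0.14. TXN, the thioredoxin that TXNRD1 reduces, fell from 108 ± 13.6 to 72.2 ± 5.21 CPM. PRDX6 and PRDX2, peroxiredoxins, fell by 0.71 and 0.61 on the log2 scale. TXNIP, which binds and inhibits thioredoxin, rose from 20.5 ± 7.02 to 41.0 ± 1.42 CPM, and MSRB3, a methionine sulfoxide reductase, rose by 0.84 on the log2 scale. The FPKM of TXNRD1 over that of TXN, a ratio in which library scaling cancels, was 1.52, 1.65 and 1.94 in the NC replicates and 1.01, 1.08 and 0.828 in the OE_CD51_ICD replicates. The ratio did not overlap between groups: the reductase transcript fell by more than the thioredoxin transcript. Copies of TXN and of ferritin genes occur as processed pseudogenes, so their counts are less certain.

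NQO1 (ENSG00000181019, chromosome 16, 69706996 to 69726951, minus strand) encodes a quinone reductase that makes hydroquinones in a single step without radical intermediates, and is the usual readout of NRF2. It was 946, 901 and 848 CPM in the NC replicates. It was 485, 448 and 493 CPM in the OE_CD51_ICD replicates. All NC libraries were well above all OE_CD51_ICD libraries. The gene fell 1.89-fold (log2 -0.92 ± 0.08 SE, edgeR adjusted p = 4.01e-11), with -1.04 to -0.86 over 19 other settings. Of NQO1 exon bases, 17.7% are shared with exons of AC092115.2, on the other strand, which had no count.

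OSGIN1 (ENSG00000140961, chromosome 16, 83948282 to 83966332, plus strand), an oxidative stress-induced growth inhibitor, had the largest change of the 9. It was 21.3, 19.4 and 25.9 CPM in the NC replicates and 5.73, 5.81 and 7.15 CPM in the OE_CD51_ICD replicates. The NC libraries were all above 19 and the others all below 8 CPM. The gene fell 3.56-fold (log2 -1.83 ± 0.16 SE, adjusted p = 5.09e-11), and the value was -1.94 to -1.40 over 19 other settings. Exons of AC009119.2, on the same strand, cover 13.9% of its exon bases.

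Quinone and carbonyl detoxification genes outside the 9 were 3 higher (15.8%) and 8 lower (42.1%) of 19 tested, against 25.2% and 25.8% of all genes, with a median of -0.16. AKR1B1, aldose reductase, fell from 1132 ± 63.5 to 529 ± 64.4 CPM, and CBR3, a carbonyl reductase, and NQO2, a paralog of NQO1, fell by 0.83 and 0.81 on the log2 scale. UGDH, which makes the UDP-glucuronate used in conjugation, rose from 18.8 ± 1.69 to 43.3 ± 4.04 CPM. The export pump ABCC4 rose by 0.71.

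Of the 3 members that serve glutathione synthesis, GCLC was called, and SLC7A11 and GCLM were not. SLC7A11 (ENSG00000151012, chromosome 4, 138164097 to 138242349, minus strand) encodes the light chain of the xCT antiporter, which brings in cystine for glutathione. It was 13.4, 10.3 and 9.87 CPM in the NC replicates and 6.58, 11.5 and 8.80 CPM in the OE_CD51_ICD replicates. The groups overlapped through OE_CD51_ICD replicate 2. The log2 fold change was -0.33 ± 0.18 SE (adjusted p = 0.140), and without OE_CD51_ICD replicate 2 it was -0.53 (adjusted p = 0.0217). It shrank to -0.13 without OE_CD51_ICD replicate 1 (adjusted p = 0.613) and to -0.17 without NC replicate 1. With the GC trend removed it was -0.56 (edgeR adjusted p = 0.00635). Of SLC7A11 exon bases, 8.97% are shared with exons of SLC7A11-AS1, on the other strand.

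GCLC (ENSG00000001084, chromosome 6, 53497341 to 53616970, minus strand) encodes the catalytic subunit of glutamate-cysteine ligase, the rate-limiting enzyme of glutathione synthesis. It was 12.5, 12.2 and 10.7 CPM in the NC replicates and 17.4, 19.4 and 15.3 CPM in the OE_CD51_ICD replicates. All OE_CD51_ICD libraries were above all NC libraries. The log2 fold change was 0.56 ± 0.14 SE (adjusted p = 0.00178), and the gene was called in 19 of 19 other settings, with 0.34 to 0.65. The lowest of these values came from log2(FPKM + 1), a scale that understates the change of low genes. Of GCLC exon bases, 6.2% are shared with exons of other annotated genes, mainly AL033397.1.

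GCLM (ENSG00000023909, chromosome 1, 93885205 to 93909456, minus strand) encodes the modifier subunit of the same enzyme, which lowers its inhibition by glutathione. It was 15.3, 14.3 and 11.1 CPM in the NC replicates and 11.7, 15.2 and 11.3 CPM in the OE_CD51_ICD replicates, with fully overlapping groups. The log2 fold change was -0.09 ± 0.16 SE (adjusted p = 0.648). With the GC trend removed it was -0.33 (adjusted p = 0.0381). GCLM and SLC7A11 had the lowest GC content of the 9, at 37.3% and 35.4%, and OSGIN1 the highest, at 63.4%.

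The 2 subunits of the ligase did not change alike. The FPKM of GCLC over that of GCLM was 0.511, 0.534 and 0.608 in the NC replicates and 0.939, 0.798 and 0.849 in the OE_CD51_ICD replicates. The ratio was higher in every OE_CD51_ICD library, with means of 0.551 ± 0.0506 and 0.862 ± 0.0710 (SD, n = 3).

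Glutathione genes outside the 9 were 5 higher (16.7%) and 14 lower (46.7%) of 30 tested, against 25.2% and 25.8% of all genes, with a median of -0.23. GPX4, the peroxidase of membrane lipid hydroperoxides, fell from 579 ± 20.6 to 315 ± 30.2 CPM, and GSR, which reduces oxidised glutathione with NADPH, from 97.7 ± 2.66 to 54.6 ± 6.27 CPM. The transferase gene GSTM4, whose exons overlap those of its close relative GSTM2, fell by 1.52 on the log2 scale. MGST2, a membrane-bound transferase, rose from 12.5 ± 1.14 to 30.0 ± 1.34 CPM, and GPX8, a peroxidase of the endoplasmic reticulum, rose by 0.82 on the log2 scale. SLC3A2, the heavy chain that partners SLC7A11, fell from 408 ± 22.0 to 277 ± 13.2 CPM, and GSS, which makes glutathione from the product of the ligase, fell by 0.52 on the log2 scale. SLC3A2 and GSS are outside the naming rule and were chosen after their values were seen.

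Among 11 genes of methionine-to-cysteine conversion and amino acid uptake, 1 was higher (9.09%) and 5 lower (45.5%), against 25.2% and 25.8% of all genes, with a median of -0.10. The higher gene was CTH, which encodes the enzyme that releases cysteine from cystathionine (3.55 ± 0.377 to 9.69 ± 1.60 CPM, log2 1.45). CBS, the enzyme just before it, went from 24.6 ± 12.1 to 9.48 ± 1.86 CPM. The NC replicates of CBS were far apart, at 11.4, 27.1 and 35.2 CPM. NC replicate 1 was just above the highest OE_CD51_ICD library (10.9 CPM). The neutral amino acid transporter gene SLC1A4 and AHCY, which clears S-adenosylhomocysteine, fell by 1.24 and 0.79 on the log2 scale.

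HMOX1 (ENSG00000100292, chromosome 22, 35380361 to 35394214, plus strand) encodes haem oxygenase 1, the inducible enzyme that breaks haem into biliverdin, carbon monoxide and iron. It was 19.03, 18.7 and 22.0 CPM in the NC replicates and 41.9, 41.9 and 50.6 CPM in the OE_CD51_ICD replicates. Every OE_CD51_ICD library was above every NC library by a wide margin. The gene rose 2.25-fold (log2 1.17 ± 0.11 SE, adjusted p = 7.41e-10), a larger absolute change than 90.4% of tested genes. It was called in 19 of 19 other settings, with log2 fold changes of 1.07 to 1.39.

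HMOX2, the constitutive isoenzyme, went the other way, from 109 ± 4.84 to 65.9 ± 5.01 CPM (log2 -0.72, adjusted p = 4.45e-08). It was described as the paralog of HMOX1 and lies outside the naming rule. The FPKM of HMOX1 over that of HMOX2 was 0.264, 0.282 and 0.324 in the NC replicates and 1.04, 1.05 and 1.11 in the OE_CD51_ICD replicates. The ratio was higher in every OE_CD51_ICD library than in any NC library, and near 1 in OE_CD51_ICD. Exons of HMOX2 overlap those of NMRAL1 on the other strand, so its level against that of HMOX1 is uncertain.

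**Figure D2:**
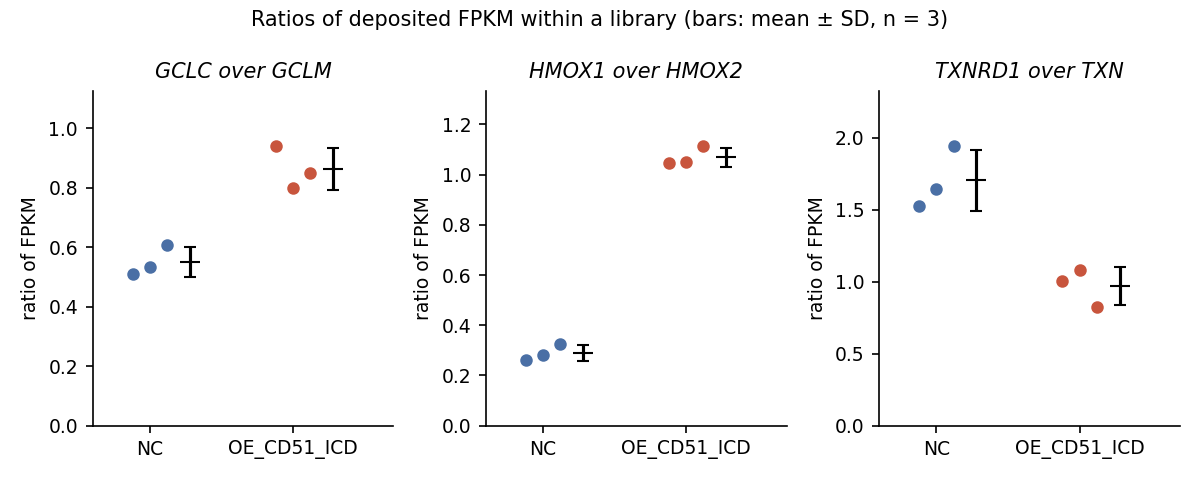
Ratios of deposited FPKM between 2 genes of the same library (vertical axes, linear, from 0) for GCLC over GCLM, HMOX1 over HMOX2 and TXNRD1 over TXN, in 3 NC libraries (blue) and 3 OE_CD51_ICD libraries (red), with mean ± SD. The groups do not overlap in any of the 3 panels, and the HMOX1 ratio has means of 0.290 and 1.07.

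Other haem and iron genes were 4 higher (19.05%) and 10 lower (47.6%) of 21 tested, against 25.2% and 25.8% of all genes, with a median of -0.15. FTL, the ferritin light chain and an NRF2 target, was among the most abundant and fell from 3399 ± 72.1 to 1835 ± 156 CPM. The haem transporter gene SLC48A1, whose exons overlap those of HDAC7, fell by 1.03 on the log2 scale. The haem exporter gene FLVCR1 rose from 6.78 ± 1.06 to 10.6 ± 1.19 CPM, and NCOA4, the receptor that takes ferritin to the lysosome, from 74.1 ± 3.27 to 116 ± 14.3 CPM.

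**Figure D3:**
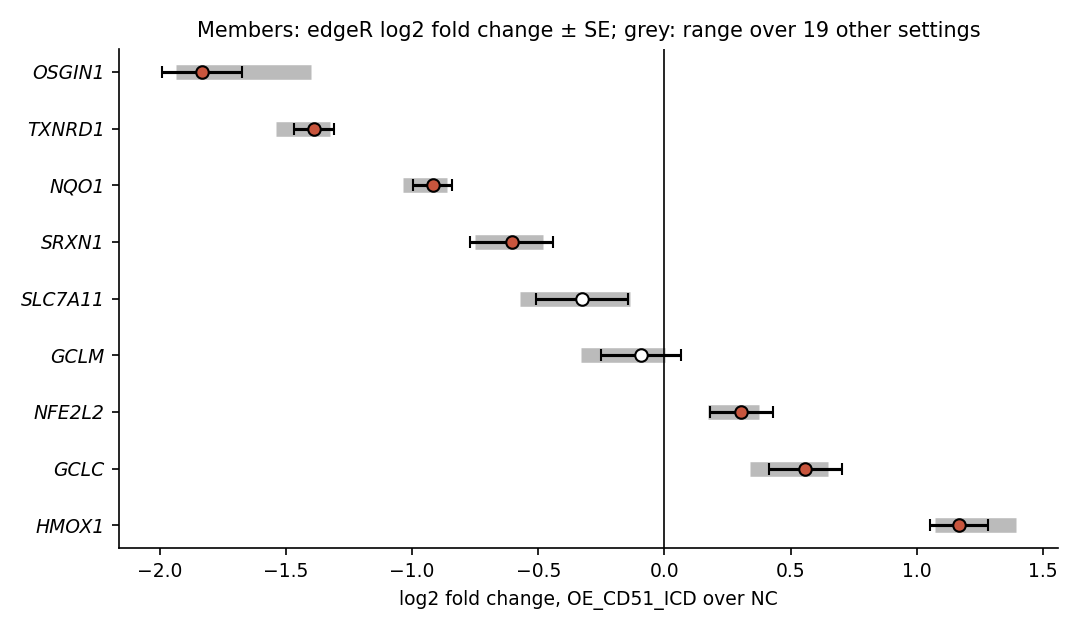
Log2 fold change of OE_CD51_ICD over NC (horizontal axis) for the 9 genes, by edgeR, with standard errors. Filled points passed an adjusted p under 0.05, open points did not, and grey bars give the range over 19 other settings. The grey bar of GCLM just reaches 0, and those of the other 8 stay on 1 side of it.

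NADPH, the reductant that TXNRD1, NQO1 and GSR all use, is supplied by several enzymes. Of 19 genes tested for this supply, 2 were higher (10.5%) and 7 lower (36.8%), against 25.2% and 25.8% of all genes, with a median of 0.02. PGD, an enzyme of the pentose phosphate pathway, fell by 0.58 and the folate enzyme gene MTHFD1 by 1.10 on the log2 scale. ME1, malic enzyme, rose from 19.8 ± 1.39 to 29.2 ± 2.48 CPM, and IDH1, which was called at log2 0.34 (adjusted p = 0.00919), was not with the GC trend removed (log2 0.15, adjusted p = 0.150) or without OE_CD51_ICD replicate 2. ME1 was still called with the GC trend removed, at 0.32 on the log2 scale.

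Among enzymes that make or remove superoxide and hydrogen peroxide, 3 were higher and 3 lower (37.5% each) of 8 tested, against 25.2% and 25.8% of all genes, with a median of -0.13. NOX4, an NADPH oxidase that produces hydrogen peroxide, was at 3.36 ± 0.308 CPM in NC and 32.5 ± 6.94 CPM in OE_CD51_ICD, a rise of 3.27 ± 0.17 SE on the log2 scale (edgeR adjusted p = 6.00e-16). PON2 and CAT, catalase, had log2 0.48 and 0.29, and the CAT call was lost with the GC trend removed (adjusted p = 0.152), with library-size scaling and without NC replicate 3. SOD2, the mitochondrial superoxide dismutase, fell from 76.1 ± 16.1 to 38.2 ± 4.72 CPM, and CYBA and SOD1 fell by 0.52 and 0.40 on the log2 scale (CYBA at -0.25 with the GC trend removed). SOD2 is listed under 2 gene IDs, of which 1 had no count. The counted ID has exons that overlap those of WTAP on the other strand.

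Over the 8 lists outside the 9 members, 144 different genes were tested. Of these, 29 were higher (20.1%) and 56 lower (38.9%), with a median of -0.11, against 25.2% and 25.8% and a median of 0.01 over all genes.

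**Figure D4:**
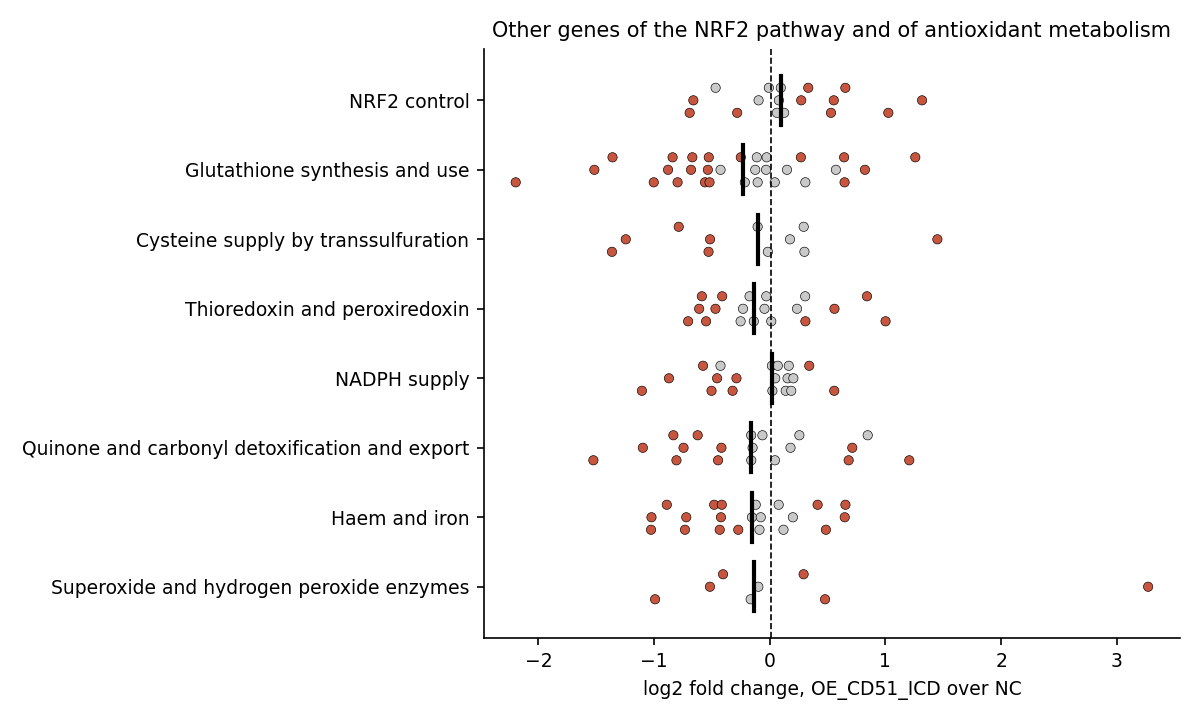
Log2 fold change of OE_CD51_ICD over NC (horizontal axis) for each tested gene of 8 lists, the 9 members left out. Red points passed an adjusted p under 0.05 by edgeR, grey points did not, black bars are list medians and the dashed line is the median of all tested genes (0.01). The point farthest to the right is NOX4, at 3.27.

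The 250 bases before the RefSeq start sites of the members (GRCh38.p14) were searched on both strands for the core of the NRF2-MAF element (TGACNNNGC), the AP-1 element (TGACTCA) and the CEBP-ATF element (TGATGNAA). The first 2 can overlap in 1 run. The table held 9 windows for 7 of the 9 genes, with none for HMOX1 and SLC7A11. The NRF2-MAF core was found before both start sites of TXNRD1 and before that of GCLM, and the AP-1 element before that of OSGIN1. Of all 35116 windows, 10.9% held the NRF2-MAF core, 4.2% the AP-1 element and 3.14% the CEBP-ATF element. The sites are shown because TXNRD1 and GCLM carry the same core close to a start site. In the main fit only TXNRD1 passed the test. With the GC trend removed GCLM was also called lower (log2 -0.33, edgeR adjusted p = 0.0381). The difference between the 2 genes was not tested. Each is printed 5′ to 3′ on the strand of its gene with 10 bases on either side, and the match is in capitals.
TXNRD1, upstream start: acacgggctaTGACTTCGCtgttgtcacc
TXNRD1, downstream start: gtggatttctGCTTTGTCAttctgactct
GCLM: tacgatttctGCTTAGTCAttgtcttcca
OSGIN1: gggcccctgcTGACTCAcgcttatgaa

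The upstream TXNRD1 site (chr12:104215670-104215698, plus strand) begins its match 99 bases before the start and lies in no GENCODE 29 gene. The downstream TXNRD1 site (chr12:104286920-104286948, plus strand) begins 102 bases before its start and lies within an annotated untranslated exon of TXNRD1. The GCLM site (chr1:93909446-93909474, minus strand) begins 34 bases before the start and reaches into the annotated untranslated exon. In both of the latter the core is read on the opposite strand, as GCNNNGTCA. The OSGIN1 site (chr16:83953133-83953159, plus strand) begins 97 bases before the start, inside the gene but in no exon. TXNRD1 had a log2 fold change of -1.39, and GCLM, at -0.09, did not pass the test in the main fit. A match here is a run of letters, and no match says only that the letters are not in the window.

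The genes whose pattern over the 6 libraries was nearest to a member were found by the root mean square distance of centred log2(CPM + 1) among 9574 protein-coding genes of at least 5 CPM. For TXNRD1 they were BMPER (distance 0.0636), CHDH (0.0767) and FZD1 (0.0799), with log2 fold changes of -1.48, -1.58 and -1.31. For HMOX1 they were SH3D21 (0.0492), CLN8 (0.0594) and UCK2 (0.0659), at 1.23, 1.13 and 1.06. For NFE2L2 they were ANXA4 (0.0264), SGCB (0.0276) and SERPINB7 (0.0279), at 0.29, 0.29 and 0.31. The calls of these last 3 were lost with the GC trend removed (adjusted p = 0.531, 0.618 and 0.437). None of the 9 is a gene of the lists used here. Genes near in pattern have a similar log2 fold change by the way they were chosen. The added 1 also shrinks the changes of low genes.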

How the data were processed

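RNA sequencing of 6 ARPE-19 libraries was analysed, grouped by sample title. The authors deposited whole-number counts per gene and FPKM values for the same libraries. Per the submitters' processing notes the build is hg38, and no aligner, counter or strand setting is given in the sources used here. The deposited FPKM scale each count by the gene's length and by a library constant that is 0.961 to 1.05 times the total count.

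Counts were fitted over the whole table with edgeR 4.0.16 in R 4.3.3 (filterByExpr, TMM, glmQLFit, glmQLFTest, two-sided), which tested 13787 of 58735 genes, with Benjamini-Hochberg adjustment and a threshold of 0.05. Standard errors were derived from the F statistic. The 9 members gave 85 to 18131 counts per library. Replicates of a group differed by more than counting noise (chi-square over degrees of freedom of 3.94 to 12.1).

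The members and gene lists were chosen with earlier results of these data known. Named were the members, ITGAV, regulators with at least 5 CPM, from each list up to 3 called genes on the side with more calls and 2 on the opposite side (3 each where tied), and the nearest genes by pattern. Some genes that this rule names are not reported here. Alternatives were other scalings, DESeq2 1.42.0, limma 3.58.1 (voom, and log2(FPKM + 1) or log2(FPKM + 0.1)), other filters, leaving out each library, a replicate block, removal of the GC trend (longest GENCODE 29 transcript, lowess offsets) and leaving out chromosome 11. Scripts were tested on simulated counts of 13787 genes, with 100 changed by log2 1 and 100 by log2 2. Of these, 89% and 99% were recovered, and 6.93% of the calls were false. Far fewer genes were changed there than the 51.0% called in these data, so the simulation does not give the error rate here. Motifs were sought in RefSeq promoter sequences of GRCh38.p14. Tables and plots used Python 3.11.15 and matplotlib 3.10.9.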

Additional observations from a re-analysis of the deposited data

How the results depend on the processing

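The calls of TXNRD1, NQO1, OSGIN1, SRXN1, HMOX1 and GCLC held in all 19 alternatives. The number of members called was 2 to 3 higher and 4 to 6 lower; removing the GC trend gave 2 and 6, and leaving out single libraries 2 to 3 and 4 to 5. NFE2L2, GCLM and SLC7A11 changed their side of the threshold as given above. Over all genes, leaving out single libraries gave 3007 to 3641 higher and 2936 to 3654 lower, and over the 8 other lists 25 to 33 and 52 to 58. ITGAV stayed at 1.94 to 2.31 on the log2 scale.

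Among the members and the other genes named by rule, those whose log2 fold change changed sign had not been called. With the GC trend removed they were -0.034 for FBXW11, 0.068 for NFE2L1 and -0.11 for RBX1, and with the replicate block as well -0.036, 0.070 and -0.11. BTRC was at 0.038 with upper-quartile scaling, 0.019 with the stricter filter and 0.0039 without chromosome 11. Leaving out single libraries gave -0.23 to 0.0013 for GCLM, -0.016 to 0.16 for RBX1, -0.015 to 0.15 for CREBBP and -0.056 to 0.046 for BTRC. The cause was not tested.

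The regulators called higher numbered 4 with library-size scaling, with log2(FPKM + 0.1) and without OE_CD51_ICD replicate 2. The cysteine list had 3 higher genes without OE_CD51_ICD replicate 3, the NADPH list 1 without OE_CD51_ICD replicate 2, and the superoxide list 1 without chromosome 11, where CAT and NOX4 lie.

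The labels number the replicates. The deviations of same-numbered libraries from their group means had correlations of -0.139, 0.0174 and 0.119 over 9924 genes. Differently numbered libraries gave -0.162 to 0.162. With means of only 3 libraries, such values cannot decide whether the numbers pair the libraries. With the replicate number as a block, 3437 genes were higher and 3552 lower, and no named gene changed its call. Other than TXNRD1, NQO1 and HMOX1 the members rest on 85 to 385 counts per library, and HMOX1 in NC on 264 to 329, which limits their precision.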
